A study of Homo sapiens with 9 samples.

Results

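The genes described here build cholesterol and fatty acids or control that synthesis. They are 32 genes, chosen by name from the known pathway, with earlier results of these data known. Shares set beside those of all tested genes therefore describe the list and do not test it. All 32 were found by symbol among the 78894 gene identifiers of the deposited tables. By role they are 7 genes of the mevalonate steps, 11 genes that lead from squalene to cholesterol, 5 genes of sterol sensing and transport, and 9 genes of fatty acid synthesis. All 32 were among the 17100 genes tested. RNA sequencing was done on CAL27 cells, an established line grown from a tongue carcinoma of squamous type, in a series about an enhancer active in head and neck cancer. The labels name 3 Control samples and 2 samples in each of the knockout groups A2ko, A8ko and C9ko, with CRISPR editing stated for the series, a medium of DMEM with serum, and no other treatment. The edited sequence, the handling of the Control cells, and whether a knockout group is 1 clone or a pool are not given in the labels, so no target level could be checked. Nothing in the labels says that the samples of a group came from separate cultures, so p-values measure only the spread between these samples, which may be technical.

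Cholesterol is made from acetyl-CoA through mevalonate, isoprenoid units and squalene, and a last series of steps on the sterol rings ends with DHCR7. The SREBP transcription factors, encoded by SREBF1 and SREBF2, switch on most of these genes. SCAP carries the SREBP precursors out of the endoplasmic reticulum when sterols are low, and INSIG1 holds SCAP back when they are high. The product of SREBF2 acts mainly on cholesterol genes and that of SREBF1 mainly on fatty acid genes. Epithelial cells need both products for membranes.

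The promoters of 4 genes are printed because their genes carry the contrast described below. SREBF2 was higher and SREBF1 lower in every knockout library, and the sterol enzymes MSMO1 and HSD17B7 were higher in every one. The sequences come from RefSeq on GRCh38.p14, each from 250 bases before to 50 bases after the gene start, 5′ to 3′ on the strand of the gene. They span chr22:41832855-41833154 on the plus strand, chr17:17836937-17837236 on the minus strand, chr4:165327419-165327718 on the plus strand and chr1:162790452-162790751 on the plus strand. Capitals mark TCACNCCAC, a form of the sterol regulatory element, and CCAAT, the box bound by NF-Y, each read on both strands (ATTGG is CCAAT on the other strand).
SREBF2: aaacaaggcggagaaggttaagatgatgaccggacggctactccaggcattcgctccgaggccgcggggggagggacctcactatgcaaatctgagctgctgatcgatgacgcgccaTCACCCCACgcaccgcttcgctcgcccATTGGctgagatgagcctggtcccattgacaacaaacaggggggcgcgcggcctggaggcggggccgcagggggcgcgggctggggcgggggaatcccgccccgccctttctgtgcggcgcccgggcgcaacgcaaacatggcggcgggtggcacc
SREBF1: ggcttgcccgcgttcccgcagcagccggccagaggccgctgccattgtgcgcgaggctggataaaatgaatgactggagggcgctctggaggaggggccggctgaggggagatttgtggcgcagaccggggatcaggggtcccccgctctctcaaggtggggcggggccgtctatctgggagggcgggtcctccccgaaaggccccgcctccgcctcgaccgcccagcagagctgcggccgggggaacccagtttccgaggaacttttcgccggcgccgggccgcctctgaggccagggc
MSMO1: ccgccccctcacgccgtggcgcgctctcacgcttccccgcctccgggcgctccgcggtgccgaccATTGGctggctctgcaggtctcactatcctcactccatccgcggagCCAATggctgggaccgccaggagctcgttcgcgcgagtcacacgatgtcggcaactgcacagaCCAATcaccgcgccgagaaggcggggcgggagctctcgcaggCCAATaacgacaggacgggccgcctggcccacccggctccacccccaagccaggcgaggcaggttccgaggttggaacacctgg
HSD17B7: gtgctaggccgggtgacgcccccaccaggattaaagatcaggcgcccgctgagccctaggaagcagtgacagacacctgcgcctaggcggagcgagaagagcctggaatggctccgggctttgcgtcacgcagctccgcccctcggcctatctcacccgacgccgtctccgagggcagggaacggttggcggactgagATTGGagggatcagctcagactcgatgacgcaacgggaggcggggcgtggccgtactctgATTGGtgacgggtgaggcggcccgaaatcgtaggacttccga
The SREBF2 promoter holds TCACCCCAC, which starts at base 118 of the printed run, and 1 CCAAT box. The SREBF1 promoter holds neither motif, that of MSMO1 holds 4 CCAAT boxes, and that of HSD17B7 holds 2. Promoters were found for 28 of the 32 genes, all but ACAT2, FDFT1, SQLE and FASN. TCACNCCAC was in 1 of the 28, the SREBF2 promoter, against 1.36% of the 10963 tested genes with a promoter in the table. CCAAT was in 21 of the 28 genes (75%), against 42.8% of those tested genes. The E-box CACGTG was in 4 genes (14.3%, against 12.4%), and the GC box GGGCGG was in 27 (96.4%, against 75.6%). No motif searched contains another. Over all 35116 promoters of the table, 1.13% held TCACNCCAC, 7.26% CACGTG, 34.6% CCAAT and 45.0% GGGCGG. The 4 printed promoters do not stand for the rest. SCD, lower in every knockout library, had 2 CCAAT boxes, and CYP51A1, FADS1 and SCAP, higher in every one, had 0. MVD, NSDHL, EBP, INSIG1 and STARD4, also higher in every one, held CCAAT, and DHCR7 and FADS2 held it in only some of their promoters. Whether a motif goes with the direction of a gene was not tested. These matches describe the letters in this window only.

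Both A2ko files carry the same numbers under the header of that group's second library, and the same is true of the A8ko files. With each such duplicate counted once, 7 libraries were used, of which Control has 3, C9ko has 2, and A2ko and A8ko have 1 each. No p-value is given for the groups with a single library. Values are TPM, a share of the library scaled for transcript length, and the sequencing depth is unknown. From 15556 to 16716 genes per library were at 1 TPM or more. Mitochondrially encoded genes took 23.1%, 26.9% and 23.5% of the TPM in Control and 25.2% in A2ko. They took 20.6% in A8ko, and 20.2% and 17.9% in C9ko. As TPM is a share, a smaller mitochondrial part leaves more of the total to the other genes. Of 5 squamous epithelial markers all were present, but their summed level was 12900 to 13814 TPM in Control, 3940 TPM in A2ko, 5817 TPM in A8ko, and 7451 and 7252 TPM in C9ko, mostly through KRT5 and KRT14. The other 3 did not follow that sum: CDH1 differed by 0.41, 0.44 and 0.74 log2 units in A2ko, A8ko and C9ko, TP63 by -0.53, -0.08 and 0.15, and EPCAM by -0.20, 0.33 and 0.16. The 4 hepatocyte and 4 adipocyte markers were below 1 TPM in every library, as were 4 of 5 leukocyte and 4 of 5 endothelial markers and 2 of 5 fibroblast markers. The leukocyte and endothelial exceptions were CD14 and CDH5. CD14 was at most 17.9 TPM in Control, 23.2 TPM in A2ko, 16.3 TPM in A8ko, and 52.5 and 50.8 TPM in C9ko. CDH5 was at most 4.27 TPM in Control, 12.6 TPM in A2ko, 8.15 TPM in A8ko, and 21.9 and 29.9 TPM in C9ko. The summed fibroblast level was 10.6 to 12.1 TPM in Control and 7.36 to 17.6 TPM in the knockouts. Its genes differed in direction: COL1A1 by 0.98, -0.16 and 0.35 log2 units in A2ko, A8ko and C9ko. COL1A2 differed by -0.34, -0.51 and 0.07, and LUM by -0.22, -1.37 and -1.11. The part of these marker shifts in the results was not tested. In these bulk samples, fewer cells of a type and less RNA per cell cannot be told apart.

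The synthesis genes were well expressed in CAL27. Their median Control level was 122 TPM, against 9.80 TPM over all tested genes. SCD, which puts the first double bond into fatty acids, had the highest Control mean (693 ± 8.98 TPM, SD, n = 3). ELOVL6, which lengthens palmitate, had the lowest (6.31 ± 0.216 TPM, SD, n = 3). The Control libraries lay close together: a gene's SD on the log2(TPM + 1) scale had a median of 0.07 and was at most 0.22. Held against the mean of the other Control libraries, the median over the 32 genes was 0.06, -0.06 and 0.02 log2 units. No gene lay both outside the range of those other libraries and at least 0.5 log2 units from their mean.

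Against the Control mean, the 32 genes had a median difference in log2(TPM + 1) of 0.27 for A2ko, 0.32 for A8ko and 0.16 for C9ko. Over all tested genes it was 0.12, 0.09 and 0.11. After scaling each library by the median of ratios, the all-gene medians were -0.03, 0.02 and 0.00 and the medians of the 32 genes were 0.10, 0.24 and 0.04. The steps from squalene to cholesterol had the highest medians of the 4 role groups in A2ko (0.34) and A8ko (0.50), and in C9ko they had 0.18. After scaling these were 0.18, 0.41 and 0.06. The mevalonate steps had 0.26 and 0.19 in A2ko and A8ko and 0.00 in C9ko, and 0.09, 0.11 and -0.12 after scaling. Sterol sensing and transport had 0.29, 0.28 and 0.21 in A2ko, A8ko and C9ko, and 0.13, 0.20 and 0.09 after scaling. Fatty acid synthesis had 0.00, 0.09 and 0.18, and -0.16, 0.01 and 0.06 after scaling. The 3 comparisons share the Control libraries.

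**Figure D1:**
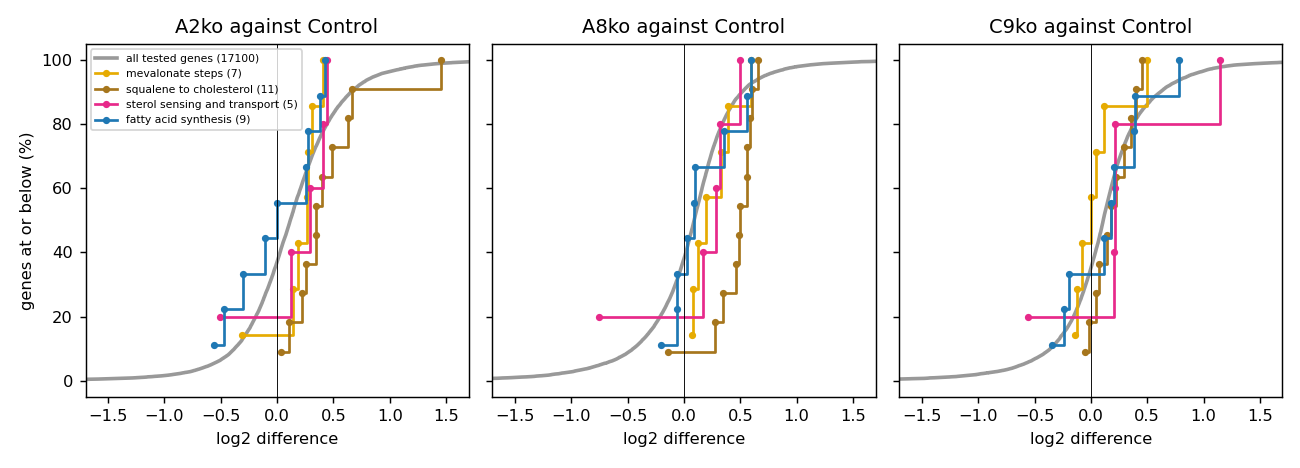
Cumulative share of genes (percent, vertical axis) at or below each log2(TPM + 1) difference from Control (horizontal axis), in A2ko, A8ko and C9ko, for all 17100 tested genes (grey) and the 4 role groups (colours, a dot per gene). In A8ko the curve of the squalene to cholesterol genes lies to the right, with a median of 0.50 against 0.09 for all tested genes, and in C9ko the curves lie nearer to the grey line.

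In C9ko, the group with 2 distinct libraries, 15 of the 32 genes (46.9%) were called by limma at an adjusted p under 0.05, against a background of 29.5% of all tested genes. Of these, 12 rose (37.5%, background 22%) and 3 fell (9.38%, background 7.42%). Sterol ring enzymes, the desaturases FADS1 and FADS2, ELOVL6 and SCAP were among those that rose, and SREBF1, SCD and ME1 were those that fell. After scaling by the median of ratios, 8 rose and 5 fell (backgrounds 15.8% and 12.3%). The share of rises among the called genes went from 80% to 61.5%. Over all tested genes it fell as well, from 3770 of 5038 called genes as deposited to 2702 of 4801 after scaling. Of the 17 genes not called, differences ran from -0.19 to 0.21 log2 units. Without C9ko replicate 1, 9 of the 32 were called, and EBP, SREBF2, ME1, ACACA, SCD and FADS2 were lost. Without C9ko replicate 2, 6 were called, and CYP51A1, MSMO1 and HSD17B7 were lost as well as those 6. SREBF1, SCAP, ELOVL6 and FADS1 were called under all 15 alternatives tried.

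In A2ko, 1 of the 32 genes, TM7SF2, lay outside the Control range by the larger distance used, a difference of at least 1 log2 unit, against 5.07% of all tested genes. At a distance of 0.5 log2 units, 3 genes were higher (TM7SF2, DHCR7 and HSD17B7) and 2 lower (SREBF1 and SCD), against backgrounds of 16.6% and 6.26% (22.8% in either direction). After scaling there were 2 higher and 3 lower (backgrounds 10.7% and 10.2%), with HSD17B7 under the distance and ELOVL6 past it. In A8ko no gene of the 32 was at 1 log2 unit (background 4.73%). At 0.5 log2 units, 8 were higher (HMGCS1, SQLE, MSMO1, HSD17B7, EBP, DHCR7, FADS1 and FADS2; background 10.4%) and 1 was lower (SREBF1; background 8.47%, and 18.9% in either direction). After scaling, 5 were higher and 1 lower in A8ko (backgrounds 7.83% and 10.1%).

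**Figure D2:**
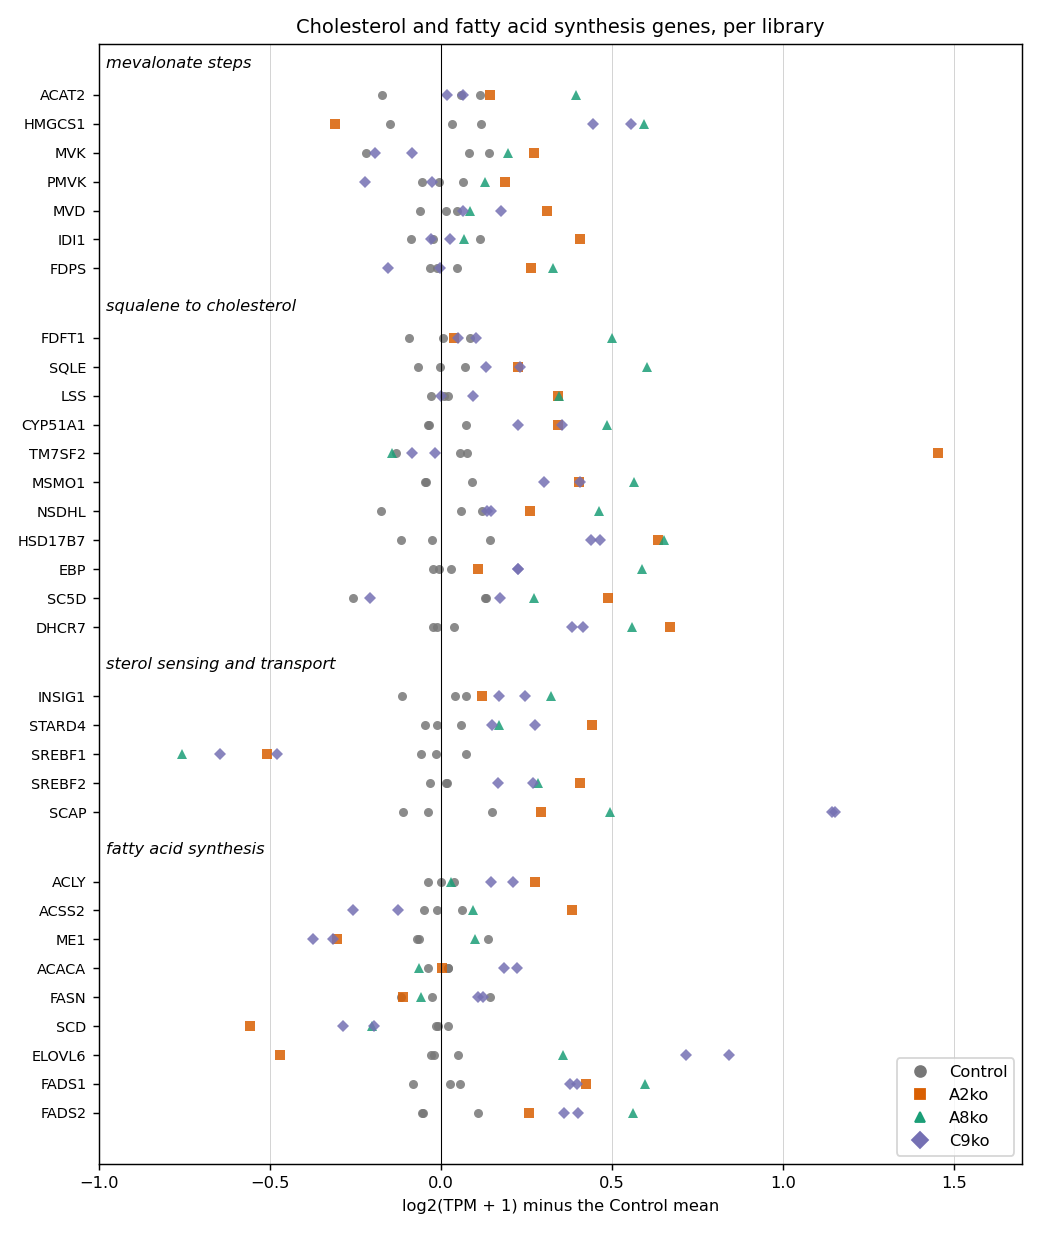
Difference of each library from the Control mean in log2(TPM + 1) (horizontal axis) for the 32 genes (rows, by role group). Circles are the 3 Control libraries, the square is A2ko, the triangle is A8ko and the diamonds are the 2 C9ko libraries. SREBF1 and SCD lie to the left of Control in all 4 knockout libraries, TM7SF2 stands at 1.45 in A2ko alone, and SCAP stands at 1.15 in C9ko.

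The 2 SREBP genes moved in opposite directions. SREBF1 (ENSG00000072310, GENCODE release 29 position on GRCh38 chr17:17810399-17837002) was at 247, 239 and 262 TPM in Control, 175 TPM in A2ko, 147 TPM in A8ko, and 159 and 178 TPM in C9ko. All 4 knockout libraries were below the lowest Control library, with A8ko the lowest. The log2 difference was -0.51 for A2ko, -0.76 for A8ko and -0.56 ± 0.08 (SE) for C9ko (limma adjusted p = 0.00209). SREBF2 (ENSG00000198911, chr22:41833079-41907308), whose promoter is printed first above, was at 146, 140.3 and 145 TPM in Control, 191 TPM in A2ko, 175 TPM in A8ko, and 162 and 173 TPM in C9ko. Every knockout library was above every Control library, and A2ko was the highest. The difference was 0.41, 0.28 and 0.22 ± 0.06 (limma adjusted p = 0.0389 in C9ko, and up to 0.227 over the alternatives). The C9ko call of SREBF2 was lost without any 1 of the 5 Control and C9ko libraries and after scaling. SREBF1 stood above SREBF2 in Control: the ratio of SREBF2 TPM to SREBF1 TPM was 0.577 ± 0.0198 (SD, n = 3). The C9ko libraries had ratios of 1.02 and 0.971, A2ko had 1.09 and A8ko had 1.19, above the Control libraries in all 4. The gene-level values do not separate transcript forms. SREBF1 also contains the microRNA gene MIR33B and overlaps RAI1 on the other strand, and whether the authors' counting used strand is not stated in the sources used here.

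SCAP (ENSG00000114650, chr3:47413694-47477126), the escort of the SREBP precursors, had the largest difference of the 32 genes in C9ko. It was at 19.4, 20.5 and 23.4 TPM in Control, 25.96 TPM in A2ko, 30.03 TPM in A8ko, and 47.6 and 47.9 TPM in C9ko. The C9ko libraries were far above the highest Control library, and A2ko and A8ko lay above Control as well. The difference was 1.15 ± 0.09 in C9ko (limma adjusted p = 2.05e-04), 0.29 in A2ko and 0.50 in A8ko. The genes around it were higher too. Among 149 other tested genes within 5 Mb of SCAP on chromosome 3, the median C9ko difference was 0.87, 132 (88.6%) were called higher, and 18 had a larger difference than SCAP. In A2ko and A8ko the median of these neighbours was 0.12 and 0.21. The part of this shared shift in the SCAP value was not tested.

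**Figure D3:**
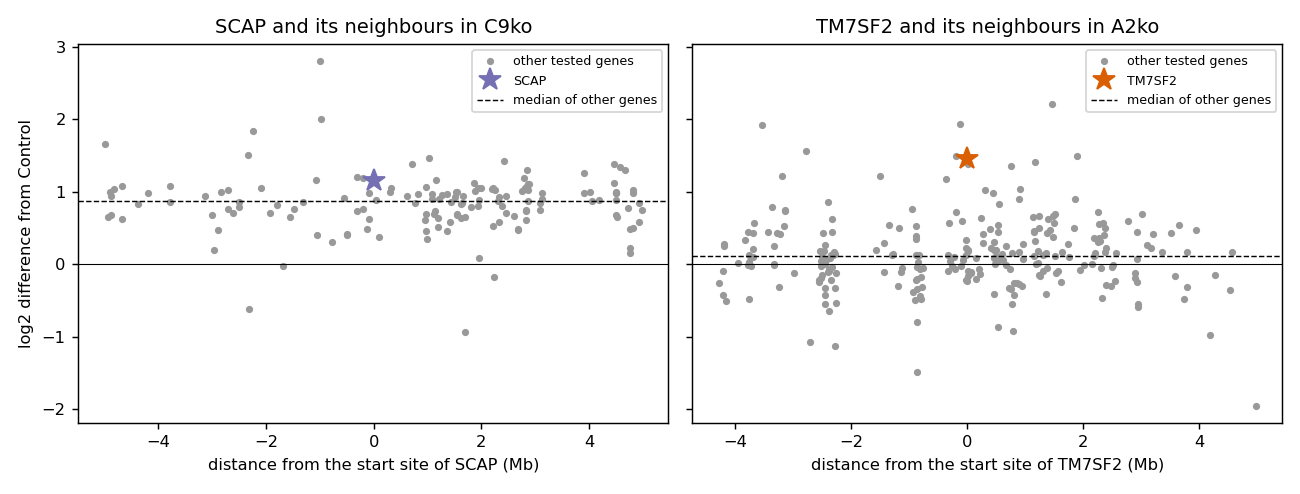
Log2(TPM + 1) difference from Control (vertical axis) of tested genes by distance of their start from that of SCAP in C9ko (left) and of TM7SF2 in A2ko (right), in Mb (horizontal axis). The dashed line is the median of the other genes, 0.87 around SCAP and 0.11 around TM7SF2, and the star marks the named gene.

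INSIG1 and STARD4, the other genes of this group, were higher in every knockout library but were not called. INSIG1, which retains SCAP when sterols are high, was at 137, 120.1 and 134 TPM in Control, 141 TPM in A2ko, 163 TPM in A8ko, and 146 and 154 TPM in C9ko (difference in C9ko 0.21 ± 0.08, limma adjusted p = 0.0824). STARD4, a carrier of cholesterol between membranes, was at 61.3, 56.9 and 58.2 TPM in Control, 80.2 TPM in A2ko, 66.2 TPM in A8ko, and 65.2 and 71.3 TPM in C9ko (C9ko 0.21 ± 0.07, adjusted p = 0.0615). For INSIG1 the A2ko difference of 0.12 turned to -0.05 after scaling, whereas STARD4 stayed above Control in all 4 libraries.

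**Figure D4:**
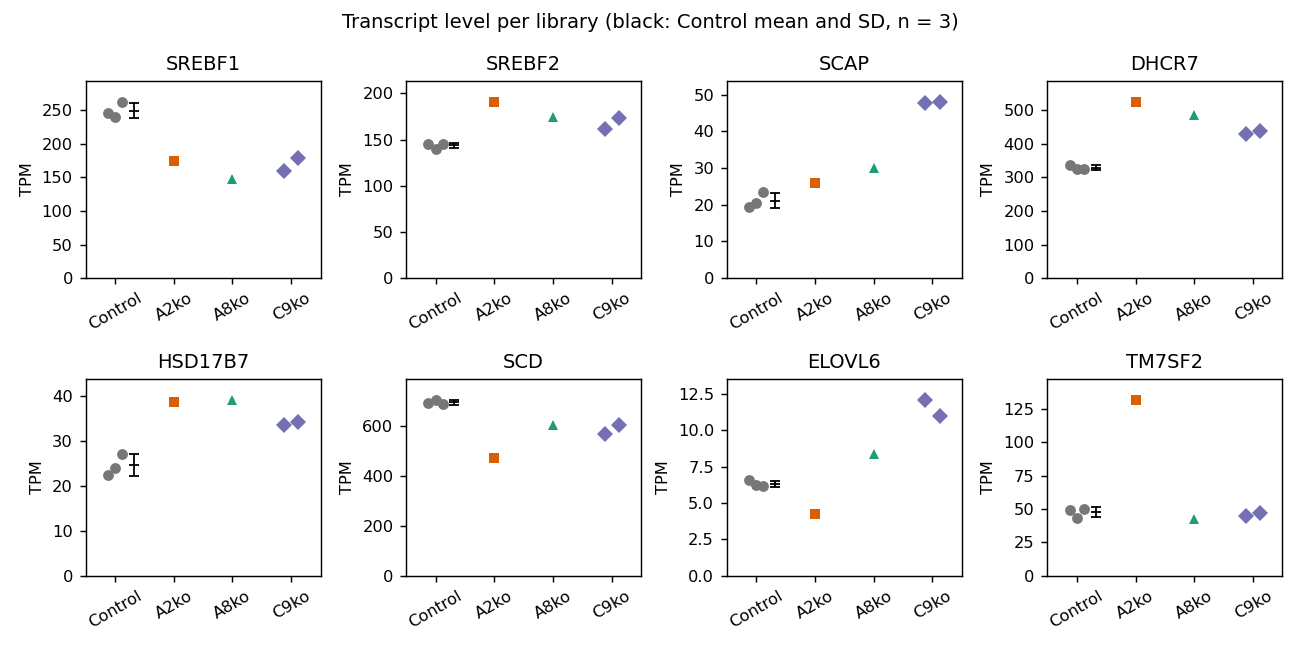
TPM (vertical axis, from 0) of 8 genes in each distinct library by group, with the Control mean and SD (n = 3) in black. SREBF1 and SCD are lower and SREBF2, SCAP, DHCR7 and HSD17B7 higher in all 4 knockout libraries, while ELOVL6 and TM7SF2 differ in direction between groups.

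Of the 7 mevalonate genes, 1 rose in C9ko, none fell, and 6 were not called, where the backgrounds of rises and falls are 22% and 7.42%. After scaling, 1 rose and 1 fell (backgrounds 15.8% and 12.3%). HMGCS1 (ENSG00000112972, chr5:43289395-43313512), which makes HMG-CoA, was at 176, 147 and 166 TPM in Control, 131 TPM in A2ko, 246 TPM in A8ko, and 222 and 239 TPM in C9ko. A8ko and C9ko lay above the Control libraries and A2ko below them. The difference was -0.31 for A2ko, 0.59 for A8ko and 0.50 ± 0.09 for C9ko (limma adjusted p = 0.00726, up to 0.0715 over the alternatives and lost with no filter). The direction in each group was the same after scaling. HMGCS1 was the only one of the 7 genes below the Control range in A2ko.

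The other 6 mevalonate genes were above the Control range in A2ko, as were 50.4% of all tested genes. After scaling, 3 of the 7 were above it, against 35.4%. FDPS, which joins isoprenoid units into farnesyl diphosphate, had the highest level of the group. It was at 475, 449.6 and 456 TPM in Control, 552 TPM in A2ko, 577 TPM in A8ko, and 413 and 459.6 TPM in C9ko. A2ko and A8ko were above Control and C9ko was not. The C9ko difference of -0.08 ± 0.07 was not called (limma adjusted p = 0.452), and after scaling it was -0.20 and called (adjusted p = 0.0379, range over the alternatives 0.0379 to 0.992). MVD, which decarboxylates mevalonate diphosphate, was at 146, 139 and 149.6 TPM in Control, 180.0 TPM in A2ko, 154 TPM in A8ko, and 152 and 164 TPM in C9ko, each knockout library above Control. After scaling its difference was 0.14 in A2ko and 0.00 in both A8ko and C9ko. ACAT2, MVK, PMVK and IDI1, which make acetoacetyl-CoA, phosphorylate mevalonate in successive steps and isomerise the isoprenoid unit, differed by 0.14 to 0.41 in A2ko, 0.07 to 0.39 in A8ko and -0.14 to 0.04 in C9ko. ACAT2 overlaps SOD2 and TCP1 on the other strand. SOD2 itself was at 331 and 332 TPM in C9ko against a Control mean of 81.2 ± 1.22 TPM (SD, n = 3), and the ACAT2 value there was 152 and 157 TPM against 150.5 ± 15.4 TPM.

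Of the 11 genes from squalene to cholesterol, 5 rose in C9ko, none fell, and 6 were not called (backgrounds 22% and 7.42%). After scaling 3 rose, with CYP51A1 and EBP lost (background 15.8%). Their summed level was 1605 ± 52.0 TPM in Control (SD, n = 3), 2089 TPM in A2ko, 2293 TPM in A8ko, and 1839 and 1921 TPM in C9ko. FDFT1, the squalene synthase at the head of the sterol branch, had the highest Control mean of the group. It was at 349.7, 309 and 331 TPM in Control, 339 TPM in A2ko, 466 TPM in A8ko, and 341 and 354 TPM in C9ko. Only the A8ko library stood well apart, at 0.50 log2 units. SQLE, which oxidises squalene, was at 164, 149 and 156 TPM in Control, 182 TPM in A2ko, 237 TPM in A8ko, and 171 and 183 TPM in C9ko. All 4 knockout libraries were above Control, with A8ko the farthest at 0.60, and the C9ko difference of 0.18 ± 0.07 was not called (limma adjusted p = 0.096). LSS, which closes the sterol rings, was higher in A2ko (0.34) and A8ko (0.35) and had 0.05 ± 0.06 in C9ko.

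CYP51A1 and MSMO1 take methyl groups off the sterol. CYP51A1 was at 139, 129 and 129 TPM in Control, 168 TPM in A2ko, 186 TPM in A8ko, and 155 and 169 TPM in C9ko. MSMO1, with 4 CCAAT boxes in the promoter printed above, was at 174, 158 and 158 TPM in Control, 216 TPM in A2ko, 241 TPM in A8ko, and 201 and 216 TPM in C9ko. For both genes every knockout library was above every Control library and A8ko was the highest. CYP51A1 differed by 0.34, 0.49 and 0.29 ± 0.07 in A2ko, A8ko and C9ko (limma adjusted p = 0.0225 in C9ko, up to 0.166 over the alternatives, and lost after scaling and without C9ko replicate 2, Control replicate 2 or Control replicate 3). MSMO1 differed by 0.40, 0.56 and 0.35 ± 0.07 (limma adjusted p = 0.0117, up to 0.105, and lost without C9ko replicate 2). NSDHL, which acts with MSMO1 in removing those methyl groups, was at 58.2, 47.2 and 55.7 TPM in Control, 64.2 TPM in A2ko, 74.04 TPM in A8ko, and 58.8 and 59.3 TPM in C9ko, above Control in all 4 and not called.

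HSD17B7 and DHCR7 were higher in every knockout library. HSD17B7 (ENSG00000132196, chr1:162790702-162812817), the ketosteroid reductase of the pathway, was at 22.5, 24.1 and 27.2 TPM in Control, 38.6 TPM in A2ko, 39.2 TPM in A8ko, and 33.6 and 34.2 TPM in C9ko. DHCR7 (ENSG00000172893, chr11:71428193-71452868), the enzyme of the last step, was at 338, 324 and 326 TPM in Control, 524 TPM in A2ko, 485 TPM in A8ko, and 429.8 and 439 TPM in C9ko. The groups did not overlap for either gene. HSD17B7 differed by 0.63 in A2ko, 0.65 in A8ko and 0.45 ± 0.09 in C9ko (limma adjusted p = 0.0102, up to 0.0743 over the alternatives and lost without C9ko replicate 2). DHCR7 differed by 0.67, 0.56 and 0.40 ± 0.06 (limma adjusted p = 0.0033, up to 0.0606 over the alternatives). After scaling, the differences of both genes stayed at 0.277 or more in every group. HSD17B7 has a near-identical pseudogene, HSD17B7P2, at 7.28 ± 0.867 TPM in Control (SD, n = 3), 7.75 TPM in A2ko, 9.18 TPM in A8ko, and 8.97 and 12.4 TPM in C9ko, so its reads may be split between the copies. Another identifier with the symbol HSD17B7P2 was at 0.213 ± 0.241 TPM in Control (SD, n = 3) and at most 0.313 TPM in the knockouts.

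EBP, the sterol isomerase, was at 235, 241 and 232 TPM in Control, 255 TPM in A2ko, 356 TPM in A8ko, and 276 and 276 TPM in C9ko. A8ko stood highest, and its difference of 0.59 was larger than the 0.11 of A2ko and the 0.23 ± 0.06 of C9ko (limma adjusted p = 0.0264, up to 0.249 over the alternatives and lost after scaling, without mitochondrial genes, and without Control replicate 1, Control replicate 3 or either C9ko replicate). After scaling, EBP was at -0.06 in A2ko and 0.10 in C9ko. SC5D, which desaturates the ring, ran from -0.02 in C9ko to 0.49 in A2ko, with 1 Control library at 19.8 TPM against 26.2 TPM in the other 2.

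TM7SF2 (ENSG00000149809, chr11:65111845-65116384), a sterol reductase of the endoplasmic reticulum, stood apart in A2ko. It was at 49.4, 43.3 and 50.1 TPM in Control, 132 TPM in A2ko, 42.9 TPM in A8ko, and 44.7 and 46.9 TPM in C9ko. A2ko was the one library far above Control, and A8ko was just below the lowest Control value. The difference was 1.45 for A2ko, -0.14 for A8ko and -0.05 ± 0.08 for C9ko (limma adjusted p = 0.662). Among 256 other tested genes within 5 Mb on chromosome 11, the median A2ko difference was 0.11, and 6 genes had a larger one than TM7SF2. TM7SF2 overlaps VPS51 on the same strand, which was at 135 ± 7.42 TPM in Control (SD, n = 3) and 170.1 TPM in A2ko.

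Of the 9 fatty acid genes, 4 rose in C9ko, 2 fell, and 3 were not called (backgrounds 22% and 7.42%). After scaling, 3 rose and 3 fell (backgrounds 15.8% and 12.3%). Their summed level was 1339 ± 16.1 TPM in Control (SD, n = 3), 1171 TPM in A2ko, 1285 TPM in A8ko, and 1244 and 1297 TPM in C9ko, below Control in all 4 knockout libraries. Without SCD the sum of the other 8 was 645 ± 21.4 TPM in Control (SD, n = 3), 701 TPM in A2ko, 683 TPM in A8ko, and 676 and 692 TPM in C9ko. As deposited this was above Control in all 4, where the highest Control sum was 670 TPM. The factors of the median of ratios were 0.93 to 0.97 in Control and 1.02 to 1.08 in the knockouts. Scaling therefore lowers the knockout sums against Control, and the order without SCD holds only for the values as deposited. SCD (ENSG00000099194, chr10:100347124-100364834) was at 689.6, 704 and 687 TPM in Control, 470.2 TPM in A2ko, 602 TPM in A8ko, and 569 and 605 TPM in C9ko. Every knockout library was below every Control library, with A2ko the lowest. The difference was -0.56, -0.20 and -0.24 ± 0.06 (limma adjusted p = 0.0311 in C9ko, up to 0.215 over the alternatives, and lost without any 1 of the 5 Control and C9ko libraries). ME1, a source of NADPH for fatty acid synthesis, was at 72.6, 62.7 and 62.9 TPM in Control, 53.2 TPM in A2ko, 70.6 TPM in A8ko, and 50.6 and 52.8 TPM in C9ko. A2ko and C9ko were below Control and A8ko lay within its range (C9ko -0.34 ± 0.08, limma adjusted p = 0.021, up to 0.107 and lost without either C9ko replicate).

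ELOVL6 (ENSG00000170522, chr4:110045846-110199199) rose most among the fatty acid genes in C9ko. It was at 6.56, 6.21 and 6.17 TPM in Control, 4.28 TPM in A2ko, 8.36 TPM in A8ko, and 12.1 and 11.001 TPM in C9ko. C9ko and A8ko were above Control and A2ko was below it. The difference was 0.78 ± 0.09 in C9ko (limma adjusted p = 8.60e-04), 0.36 in A8ko and -0.47 in A2ko, with the same directions after scaling. None of the 32 other tested genes within 5 Mb had a larger C9ko difference.

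FADS1 and FADS2, the desaturases of polyunsaturated fatty acids, lie next to each other on chromosome 11 and were higher in every knockout library. FADS1 (ENSG00000149485, chr11:61799625-61829318) was at 41.4, 44.7 and 45.6 TPM in Control, 59.2 TPM in A2ko, 66.7 TPM in A8ko, and 58.1 and 57.3 TPM in C9ko. FADS2 (ENSG00000134824, chr11:61792980-61867354) was at 15.1, 15.04 and 16.98 TPM in Control, 18.9 TPM in A2ko, 23.6 TPM in A8ko, and 20.99 and 20.4 TPM in C9ko. A8ko was the highest library for both. FADS1 differed by 0.42, 0.60 and 0.39 ± 0.07 in A2ko, A8ko and C9ko (limma adjusted p = 0.00584). FADS2 differed by 0.26, 0.56 and 0.38 ± 0.08 (limma adjusted p = 0.0131, up to 0.0666 and lost without either C9ko replicate). The annotated genes overlap on opposite strands, so their values are not fully separate without strand. FEN1 lies within FADS2 on the same strand, at 67.5 ± 5.11 TPM in Control (SD, n = 3), and differed by 0.01, 0.43 and 0.31 log2 units in A2ko, A8ko and C9ko. Among 233 other tested genes within 5 Mb of each, the median C9ko difference was 0.10.

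Of the genes that make the fatty acid chain and its precursors, ACACA was called in C9ko, and FASN, ACLY and ACSS2 were not. ACACA, which makes malonyl-CoA, was at 38.03, 39.7 and 39.7 TPM in Control, 39.2 TPM in A2ko, 37.4 TPM in A8ko, and 44.6 and 45.8 TPM in C9ko. The C9ko libraries were above Control and A8ko below it (C9ko 0.20 ± 0.06, limma adjusted p = 0.0465, up to 0.3205, lost after scaling and without any 1 of the 5 Control and C9ko libraries). FASN, the fatty acid synthase, differed by -0.11, -0.06 and 0.12 ± 0.09 in A2ko, A8ko and C9ko. ACLY, which makes cytosolic acetyl-CoA from citrate, differed by 0.27, 0.03 and 0.18 ± 0.06. ACSS2, which makes it from acetate, was at 119, 110.4 and 114 TPM in Control, 149 TPM in A2ko, 122 TPM in A8ko, and 95.5 and 105 TPM in C9ko, above Control in A2ko and below it in C9ko. Its C9ko difference of -0.19 ± 0.07 was not called (limma adjusted p = 0.0824). After scaling it was -0.31 and called (adjusted p = 0.00568, range over the alternatives 0.00568 to 0.349).

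Across the knockouts, 14 of the 32 genes had all 4 distinct knockout libraries above all 3 Control libraries (43.8%), against 17% of all tested genes, and 2 had all 4 below (6.25%, against 4.61%). Those above were MVD, SQLE, CYP51A1, MSMO1, NSDHL, HSD17B7, EBP, DHCR7, INSIG1, STARD4, SREBF2, SCAP, FADS1 and FADS2. Those below were SREBF1 and SCD. After scaling, 9 were above and 2 below, against 8.5% and 9.58% of all tested genes, with MVD, SQLE, NSDHL, EBP and INSIG1 no longer above in every library. In the fit of the 3 knockout group means against the 3 Control libraries, 1 of the 32 genes was called by limma, against 1.03% of all tested genes, and 12 (37.5%) had an unadjusted p under 0.05, against 16.0% of all tested genes. That gene was SREBF1, with a difference of -0.61 ± 0.10 (SE) and an adjusted p of 0.0472. The call was lost without any 1 Control library (adjusted p 0.242 to 0.277), without A8ko (0.0748) or without C9ko (0.0957), and its adjusted p ran from 0.00852 to 0.277 over the alternatives. Without A2ko, 9 of the 32 were called: SREBF1 and, all higher, HMGCS1, CYP51A1, MSMO1, HSD17B7, DHCR7, SCAP, FADS1 and FADS2. In that fit 11.7% of all tested genes were called. Among the genes not called, DHCR7 differed by 0.54 ± 0.10 (adjusted p = 0.0685) and HSD17B7 by 0.58 ± 0.11 (adjusted p = 0.0729).

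Genes that surround the synthesis pathway were taken from 7 lists of 88 genes, of which 81 were tested. In C9ko, 25 rose and 5 fell, and 51 were not called, to be read against the same backgrounds of 22% and 7.42%. After scaling, 19 rose and 13 fell, to be read against 15.8% and 12.3%. Sterol uptake, trafficking and storage had the largest part of its genes called as deposited, with 8 of 11 rising and none falling. After scaling 6 rose and 1 fell, and glycerolipid synthesis and lipid droplets had as many called, with 3 rising and 4 falling. The median difference of sterol uptake, trafficking and storage as deposited was 0.37 in C9ko, beside 0.38 in A2ko and 0.30 in A8ko. SCARB1, the receptor for HDL, was at 81.7, 68.1 and 74.4 TPM in Control, 79.96 TPM in A2ko, 104 TPM in A8ko, and 131 and 119.6 TPM in C9ko (C9ko 0.74 ± 0.09, limma adjusted p = 0.00136). VLDLR, a lipoprotein receptor, was at 3.51, 3.33 and 3.18 TPM in Control, 3.62 TPM in A2ko, 2.65 TPM in A8ko, and 6.88 and 7.78 TPM in C9ko (C9ko 0.94 ± 0.10, limma adjusted p = 8.33e-04). The C9ko libraries were far above the rest for VLDLR, and 71.4% of its 28 tested neighbours on chromosome 9 were also called higher there.

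The other lists had a smaller part of their genes called as deposited. Of 9 genes of SREBP processing, 2 rose in C9ko, among them ERLIN1, a membrane protein of the endoplasmic reticulum that binds the SREBP complex (0.60 ± 0.07). After scaling, 1 of the 9 rose and 2 fell. Of 6 tested genes of sterol efflux and LXR targets, limma called 0, and 1, the LXR gene NR1H2, had an unadjusted p under 0.05. After scaling, 1 of the 6 fell. Of 10 tested genes of the isoprenoid branch, 1 rose, and 0 were called after scaling. Of 19 tested genes of other fatty acid activation, elongation and desaturation, 7 rose and 1 fell, and after scaling 6 rose and 2 fell. FADS3, the neighbour of FADS1 and FADS2, was at 93.6, 92.7 and 101 TPM in Control, 128 TPM in A2ko, 207 TPM in A8ko, and 160.3 and 161 TPM in C9ko, and HACD1, of the elongation cycle, was at 10.1, 7.41 and 8.25 TPM in Control, 13.1 TPM in A2ko, 12.8 TPM in A8ko, and 13.6 and 15.01 TPM in C9ko. Both were above Control in all 4 knockout libraries. ACSL1, which activates fatty acids, was below Control in all 4, at 29.4, 27.2 and 29.04 TPM in Control, 18.96 TPM in A2ko, 12.9 TPM in A8ko, and 20.9 and 23.1 TPM in C9ko. ELOVL4 and ACACB stood out in A2ko, at 1.47 and 1.26 log2 units, and had 0.06 and 0.15 in C9ko.

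Of 15 tested genes of fatty acid oxidation, 3 rose and 1 fell in C9ko, and after scaling 3 rose and 3 fell. ACAA1, a peroxisomal thiolase on chromosome 3, rose by 1.14 ± 0.07, and 84.3% of its 51 tested neighbours were called higher as well. ACAA2, the mitochondrial thiolase, was low everywhere, at 1.37, 1.51 and 1.04 TPM in Control and 2.44 and 2.58 TPM in C9ko. Of 11 tested genes of glycerolipid synthesis and lipid droplets, 4 rose and 3 fell. LPIN1, a phosphatidate phosphatase, was at 24.6, 24.6 and 26.6 TPM in Control, 30.3 TPM in A2ko, 43.7 TPM in A8ko, and 34.8 and 37.97 TPM in C9ko. FABP5, the fatty acid binding protein of squamous epithelium, was at 150.2, 145 and 183 TPM in Control, 98.6 TPM in A2ko, 64.1 TPM in A8ko, and 63.2 and 48.8 TPM in C9ko, below Control in every knockout library. Its C9ko difference of -1.50 ± 0.14 log2 units (limma adjusted p = 4.37e-04) was larger in size than that of any of the 32 synthesis genes. The epithelial markers KRT5 and KRT14 were lower in the same 4 libraries, and CDH1 was higher in them.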

How the data were processed

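RNA from CAL27 cells was sequenced by the authors as strand-specific polyA libraries from 2 ug of total RNA, per the labels' protocols. The authors deposited TPM per Ensembl gene identifier. The genome build is hg38, per the submitters' processing notes, and the aligner, the counting tool and the use of strand are not given in the sources used here. TPM keeps no depth, so no counting interval is given.

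Of 78894 identifiers, 61463 had a symbol and 57342 a position in GENCODE 29. Identical files counted as 1 library. Values were analysed as log2(TPM + 1), which understates changes of low genes. Genes with at least 1 TPM in at least 2 distinct libraries were tested. The C9ko contrast came from 1 limma model of the 4 groups (limma 3.58.1, R 4.3.3, trended eBayes), and p-values were adjusted by Benjamini and Hochberg's method across the 17100 genes. For all knockouts, 3 group means were fitted against 3 Control libraries. The C9ko fit was tested on simulated data, and the fit of all knockouts was not. A2ko and A8ko genes were counted where they lay outside the Control range and at least 1 or 0.5 log2 units from the Control mean.

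Described with values were genes called, counted at 1 log2 unit, on 1 side of Control in all knockout libraries, or highest in their role group. In wider lists these were up to 2 called genes per direction with the largest C9ko difference of at least 0.5 log2 units, and genes counted in A2ko or A8ko. From the wider lists, 1 further gene was taken out and is not reported here. The remaining genes of the 32 are given by their differences. The genes and lists were chosen with earlier results of these data known. Alternatives changed the pseudocount (0.1 or 5), the filter, the scaling, the mitochondrial genes, the libraries used and the replicate block.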

Additional observations from a re-analysis of the deposited data

Results flagged for a closer look

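Among the 32 synthesis genes and the genes named from the wider lists, 6 had knockout groups on opposite sides of the Control range, also after scaling by the median of ratios. Genes of the wider lists that are not named were not searched for this. In each case the difference between the knockout groups was not tested, because 2 of the groups rest on a single library. Values are the widest gap between knockout groups on the log2(TPM + 1) scale. HMGCS1, which makes HMG-CoA, had a gap of 0.90, with A2ko below Control and A8ko and C9ko above. TM7SF2, a sterol reductase, had a gap of 1.60, with A2ko above Control and A8ko just below it. ACSS2, the acetyl-CoA synthetase that uses acetate, had a gap of 0.57 between A2ko and C9ko. GGT7, which overlaps ACSS2 on the other strand, differed by 1.57 in A2ko. ACACA had a gap of 0.27 between C9ko and A8ko. ELOVL6 had a gap of 1.25, with C9ko above Control and A2ko below. Of the surrounding genes named, VLDLR had a gap of 1.19, with C9ko above Control and A8ko below.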

How the results depend on the processing

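No called result changed direction under the alternatives run. TPM carries no depth, so counting error is unknown, and A2ko and A8ko have 1 library each. In C9ko, the 15 called synthesis genes (12 higher, 3 lower) became 7 (6 higher, 1 lower) with no filter, and 5 were lower after scaling by the median of ratios. Leaving out single Control or C9ko libraries gave 6 to 11 called, 5 to 9 higher and 1 to 2 lower, and 3301 to 4174 of all tested genes (main value 5038). Using all 9 files gave 8166 genes and 48 genes of the wider lists (main value 30). Samples with the same replicate number did not deviate together (r = -0.05 for the first pair and -0.01 for the second). With a replicate block, 7 synthesis genes (6 higher, 1 lower), 3248 of all tested genes and 18 genes of the wider lists were called. For all knockouts, the 1 called synthesis gene became 0 with a pseudocount of 0.1 and 0 with no filter, which left 23 of all tested genes (main value 176). Leaving out single Control libraries or knockout groups gave 0 to 9 synthesis genes and 5 to 1993 of all tested genes. At 0.5 log2 units, 5 synthesis genes and 3903 of all tested genes were counted in A2ko (main values 1 and 867), and 9 and 3226 in A8ko (main values 0 and 809). All tested genes counted in A2ko were 1813 with a pseudocount of 0.1, 248 with 5 and 380 with a mean of at least 5 TPM, and in A8ko 1689, 269 and 412. Genes above Control in all 4 knockout libraries went from 14 to 9 after scaling. Median differences of the synthesis genes after scaling were 0.10 for A2ko, 0.24 for A8ko and 0.037 for C9ko, and 0.25 for A8ko and 0.060 for C9ko without mitochondrial genes. The median of the SCAP neighbours in C9ko was 0.97 with a pseudocount of 0.1, 0.63 with 5, 0.76 after scaling and 0.80 without mitochondrial genes. The cause of these changes was not tested, except that fewer libraries, more genes tested or the removed mitochondrial share enter by construction.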
